A study of Rattus norvegicus with 6 samples.

Results

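Complement is a cascade of plasma and cell surface proteins that tags microbes and damaged cells for removal. In its classical route C1q binds the target and its partner proteases C1r and C1s cut C4 and C2, in the alternative route factor B takes the place of C2, and both routes meet at C3. Host cells are protected by membrane regulators such as CD55 and CD59. Most circulating components are made by the liver, whereas C1q is made mainly by macrophages, and many other tissues make complement proteins locally, particularly under inflammation.

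Expression of 9 complement genes was examined in the neonatal rat ovary after an immune challenge. They were C1qa, C1qb, C1qc and C1s of the classical route, C2, C3 and Cfb, which form the enzymes that act on C3 and C5, and the regulators Cd55 and Cd59. The genes were chosen by name and not by a filter on their values, although earlier results of these data were known. They were found through the RefSeq accession of each array probe. All 9 had a probe, out of 26903 genes and unnamed transcripts measured, and 11 probes in all belonged to them, since C2 and Cd55 each had a pair. Cd59 is listed in the annotation as Cd59b, with Cd59 as a synonym.

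Female Wistar pups received intraperitoneal lipopolysaccharide (LPS, from Salmonella enterica, 0.05 mg/kg) or the same volume of saline on postnatal days (PND) 3 and 5, and whole ovaries were taken on PND 7. LPS is a bacterial cell wall component that activates Toll-like receptor 4. RNA from 3 LPS and 3 saline samples was hybridised to single-colour Agilent rat arrays, 1 array per sample. According to the study's methods, the tissue of each group came from more animals than arrays and from fewer litters than arrays, so p-values measure the spread between these samples, and as no litter received both treatments, litter and treatment cannot be told apart. The whole ovary was homogenised, so fewer cells of a type and less RNA per cell cannot be told apart.

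Values are log2 signals relative to the 75th percentile of each array, so 0 is the signal that 75% of the probes do not exceed. Taken over single spots, the 75th percentile lay between 2824 and 6754 intensity units, and 66.3% to 76% of spots were well above background. Oocyte markers bore out the tissue label, since all 7 of those with a probe were well above background on all 6 arrays, as were 4 of 5 granulosa cell markers. Saline replicates 2 and 3 stood apart. The summed linear signal of 6 adrenal cortex markers, in multiples of the 75th percentile, was 150.5 and 206 on them against 1.18 on saline replicate 1 and 0.892 to 1.39 on the LPS arrays, and that of 7 adrenal medulla markers was 86.2 and 56.1 against 5.94 and 3.12 to 5.51. Saline replicate 2 had the highest sum of 7 liver markers as well, 24.6 against 7.47 to 13.9 on the other arrays. Differences of the named complement genes that moved by over 1.5 times without both of these arrays are also given without them. For other genes they are not. All arrays lay on 1 slide, with saline replicates 1 to 3 and LPS replicate 1 in one row and LPS replicates 2 and 3 in the other, so a fit with the row as a block compares LPS replicate 1 alone with the saline arrays.

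Upstream sequences were at hand in RefSeq for 4 of the 9 genes, C1qa, C1qb, C3 and Cd55. Those of C3, C1qa and C1qb are printed because C3 had the lowest log2 difference of the 9 genes, and because C1qa and C1qb, which encode chains of 1 protein and are separated only by C1qc, differed in pattern, with saline replicate 2 the highest array for C1qa and the lowest for C1qb. Each run holds the 250 bases before the annotated start, read 5′ to 3′ on the minus strand of GRCr8, from chr9:2201340-2201589 for C3, chr5:154419934-154420183 for C1qa and chr5:154407828-154408077 for C1qb. Capitals mark every match, on either strand, to the motifs GGG and CC parted by any 5 bases (NF-kappaB), TTNNGNAA (C/EBP), TTCNNNGAA (gamma activated site) and GAGGAA (ETS core).
C3 upstream: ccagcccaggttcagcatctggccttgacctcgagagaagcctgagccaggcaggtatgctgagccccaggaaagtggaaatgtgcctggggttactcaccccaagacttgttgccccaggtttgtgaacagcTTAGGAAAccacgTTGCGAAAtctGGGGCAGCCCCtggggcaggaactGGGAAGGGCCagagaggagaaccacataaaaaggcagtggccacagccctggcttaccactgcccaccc
C1qa upstream: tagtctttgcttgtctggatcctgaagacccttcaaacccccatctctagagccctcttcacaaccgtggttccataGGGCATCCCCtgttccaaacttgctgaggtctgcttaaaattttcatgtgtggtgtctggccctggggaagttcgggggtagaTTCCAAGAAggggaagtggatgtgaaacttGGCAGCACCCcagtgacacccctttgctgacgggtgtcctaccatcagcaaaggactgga
C1qb upstream: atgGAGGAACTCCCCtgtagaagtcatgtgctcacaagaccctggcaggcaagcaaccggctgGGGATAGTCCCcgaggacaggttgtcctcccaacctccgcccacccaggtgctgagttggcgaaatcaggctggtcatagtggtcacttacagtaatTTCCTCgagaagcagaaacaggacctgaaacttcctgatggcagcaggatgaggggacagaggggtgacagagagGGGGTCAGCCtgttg
The C3 run held 3 NF-kappaB matches, of which a pair overlapped from 93 to 83 bases before the start and the other lay at 69 to 60, and 2 C/EBP matches at 117 to 110 and 104 to 97. The C1qa run held 2 NF-kappaB matches, at 173 to 164 and 60 to 51, and 1 gamma activated site at 90 to 82. In the C1qb run there were 4 NF-kappaB matches, including a pair that overlapped from 187 to 177 and 1 that shared bases with an ETS core at 247 to 242, and a further ETS core at 90 to 85. Over 33469 rat promoter windows of the same length, 42.3% held an NF-kappaB match, 37.2% a C/EBP match, 23.3% an ETS core and 7.67% a gamma activated site. Such short patterns are common, and a match describes letters only.

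None of the 9 complement genes passed the test after LPS. Expression of 4 was higher and of 5 was lower on average in the LPS group, by log2 differences from -0.98 for C3 to 0.36 for Cd55. Adjusted p-values from limma ran from 0.272 to 0.968. An adjusted p under 0.05 was reached by 0 of the 9 genes and by 0% of all genes. A 2-fold difference at an unadjusted p under 0.05 was found for 0 of the 9 genes in either direction, where 0.539% of all genes were called higher and 1.03% lower. Only C2 had an unadjusted p under 0.05, against 15.9% of all genes. The median log2 difference of the 9 genes was -0.07, beside -0.04 over all genes and 0.02 over the 16295 genes well above background on all arrays.

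**Figure D1:**
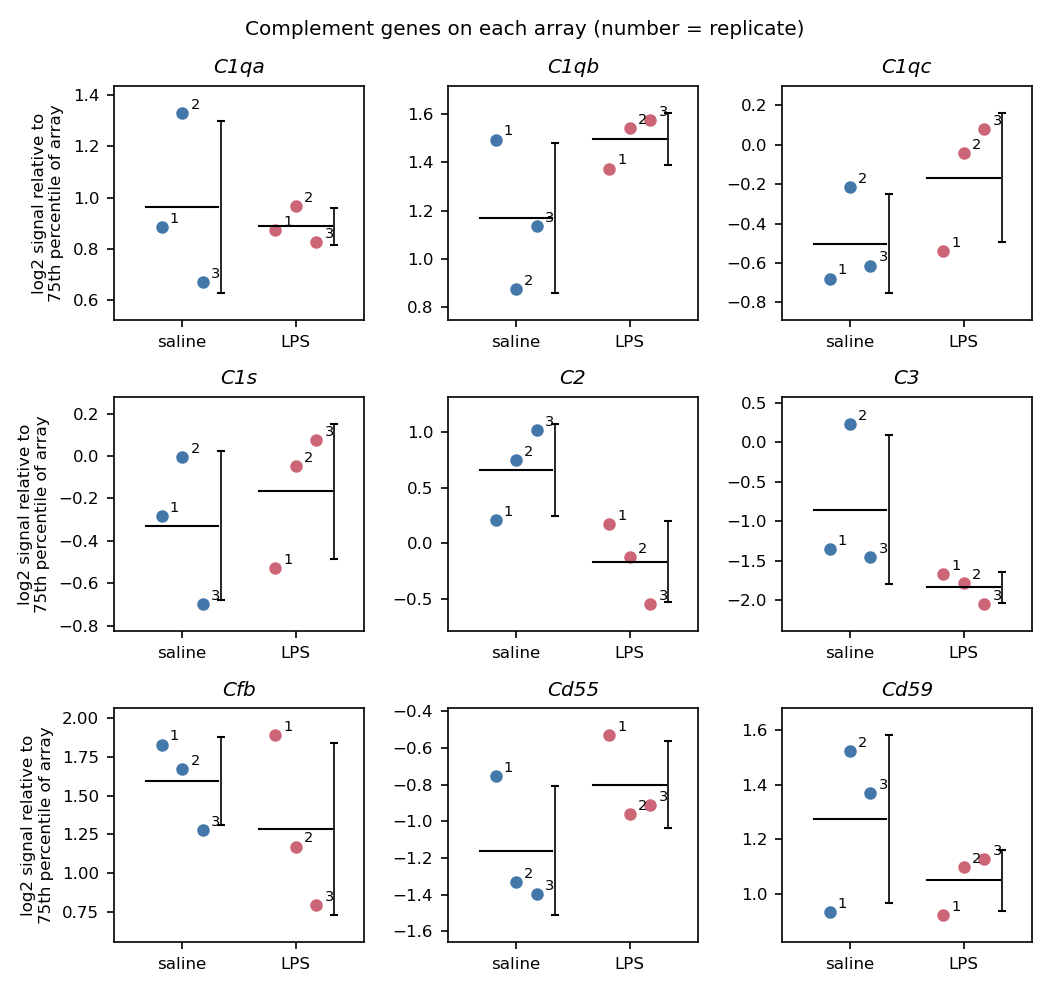
Log2 signal of each complement gene over the 75th percentile of the same array (vertical axis, a separate scale per gene), with saline in blue and LPS in red. Each point is 1 array with its replicate number, horizontal lines are means of 3 arrays and bars are ± 1 SD. The groups stand apart for C2 and C3 and overlap for the other 7 genes.

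Every member was well above background on all 6 arrays, so each had a measured level in both groups. At 2 of the 9 genes, C2 and C3, the LPS arrays were lower with no overlap, and no gene was higher without overlap. Among all genes 18.2% were lower and 4.67% higher without overlap, and among genes well above background on all arrays, the class that holds all 9, the shares were 5.88% and 5.3%. The 2 genes without overlap depended on the scaling: with no normalization between arrays, which moved the median log2 difference of all probes from -0.04 to 0.34, C2 and C3 overlapped between the groups and a different pair of genes was higher without overlap.

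C1q, the recognition molecule of the classical route, is built from 3 chains, the products of C1qa, C1qb and C1qc. C1qa had log2 signals of 0.88, 1.33 and 0.67 on saline replicates 1, 2 and 3 and of 0.87, 0.97 and 0.82 on LPS replicates 1, 2 and 3. The LPS arrays lay inside the saline range, and the log2 difference was -0.07 (standard error 0.21, 95% interval -0.58 to 0.44, adjusted p = 0.968 by limma). Its sign turned to 0.11 without saline replicate 2.

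C1qb had log2 signals of 1.49, 0.87 and 1.14 on the saline arrays and 1.37, 1.54 and 1.57 on the LPS arrays. Saline replicate 1 was as high as the LPS arrays, and the other saline arrays were below them. The log2 difference was 0.33 (standard error 0.21, 95% interval -0.17 to 0.83, adjusted p = 0.549 by limma), and it was 0.0027 when saline replicates 2 and 3 were left out.

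C1qc had log2 signals of -0.68, -0.21 and -0.61 on the saline arrays and -0.54, -0.04 and 0.08 on the LPS arrays. LPS replicate 1 fell among the saline values, while LPS replicates 2 and 3 exceeded all of them. Its log2 difference was 0.34 (standard error 0.24, 95% interval -0.23 to 0.90, adjusted p = 0.613 by limma), and it was 0.51 without saline replicates 2 and 3. Within the same-numbered pairs of samples LPS was higher in 3 of 3, by 0.14, 0.17 and 0.69. Of the other members, Cd55 was higher in 3 of 3 pairs and C1qb in 2 of 3. C1qa, C1s and Cfb were higher in 1 of 3, and C2, C3 and Cd59 in 0 of 3. The labels state no pairing, and the share of all genes with such pairs was not computed.

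The chains did not follow each other over the arrays. Over the 6 arrays Pearson's r was -0.53 between C1qa and C1qb, 0.33 between C1qa and C1qc and 0.22 between C1qb and C1qc, and among 10006 named genes well above background C1qb ranked 9227 in likeness to C1qa and C1qc ranked 2436. These arrays share hybridisation and scaling, and 6 points with so small a range of signal describe these samples only. Among the genes most like C1qa were Actl6a, Cisd1, Hrc and Bag3 (r from 0.967 to 0.981), those most like C1qb were Jpt2, Catsperg, Phyhd1, Egfl6 and Ccdc152 (r from 0.989 to 0.997), and those most like C1qc were Pbk, Brix1, Lzts2, Rbm12 and Pmp22 (r from 0.989 to 0.995). The lists had no gene in common.

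C1s, the protease that cuts C4 and C2, had log2 signals of -0.28, -0.0029 and -0.70 on the saline arrays and -0.53, -0.05 and 0.07 on the LPS arrays. The groups spread over nearly the same range, with a log2 difference of 0.16 (standard error 0.26, 95% interval -0.46 to 0.78, adjusted p = 0.905 by limma), and without saline replicate 3 it was -0.02.

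C2 supplies the protease of the classical C3 convertase. It had log2 signals of 0.21, 0.75 and 1.02 on the saline arrays and 0.17, -0.12 and -0.55 on the LPS arrays. All LPS arrays were below all saline arrays, although saline replicate 1 and LPS replicate 1 nearly touched. The log2 difference was -0.83 (standard error 0.29, 95% interval -1.51 to -0.14), a 1.77-fold lower signal, with an unadjusted p of 0.0250 and an adjusted p of 0.272 by limma. With the replicate number as a block the unadjusted p was 0.0568, so that no gene of the 9 was left under 0.05 at its brightest probe.

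The other C2 probe gave 0.01, 0.29 and 0.36 on the saline arrays and -0.29, -0.60 and -0.86 on the LPS arrays. Again no values overlapped, and the log2 difference was -0.81 (standard error 0.21, 95% interval -1.32 to -0.30, adjusted p = 0.272 by limma). In an exact two-sided permutation test over the arrays both probes had p = 0.1, the smallest p that 3 against 3 arrays allow. When saline replicates 2 and 3 were left out, the log2 difference of C2 was -0.38 at the first probe and -0.59 at the other. At the first probe, with the row of the array on the slide as a block, it was -0.49. Both values of the first probe are more than 1.5 times smaller than the value with all arrays.

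C3, the central component, is cut by both convertases and its fragment coats the target. Its log2 signals were -1.35, 0.23 and -1.45 on the saline arrays and -1.67, -1.78 and -2.05 on the LPS arrays. Saline replicate 2 stood far above the other 5 arrays, and the remaining saline arrays were a little above the LPS arrays. The log2 difference was -0.98 (standard error 0.46, 95% interval -2.07 to 0.11, adjusted p = 0.344 by limma). Without saline replicate 2 it was -0.44, and without saline replicates 2 and 3 it was -0.48.

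Among the genes closest to C3 in pattern were Ciao3, Itih4, Ahsp and Asgr1, with r from 0.990 to 0.996 over the 6 arrays. Without saline replicate 2 these 4 genes had r from 0.903 to 0.975 over the remaining 5 arrays. As the genes were picked by r over arrays that include these 5, the values are no separate test of the likeness. Itih4 and Asgr1 are expressed mainly in the liver, and Ahsp, which binds free alpha-globin, in red cell precursors. Itih4 had a log2 signal of -1.20 on saline replicate 2 and of -4.64 to -3.75 on the other arrays, and Ahsp of 2.63 against -0.60 to 0.37. Of the 7 liver markers, Alb, for serum albumin, was at 2.06 on saline replicate 2, at -1.33 on saline replicate 3 and between -7.38 and -6.79 on the rest, where it was not well above background. Transferrin, Tf, was measured on every array, between 2.73 and 3.73, with saline replicate 1 the highest. Summed signals of the 4 red blood cell markers were 59.2 on saline replicate 2, 38.7 and 41.7 on the other saline arrays and 24.8 to 39.6 on the LPS arrays. The part of liver, adrenal or blood transcripts in the level of C3 was not tested.

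**Figure D2:**
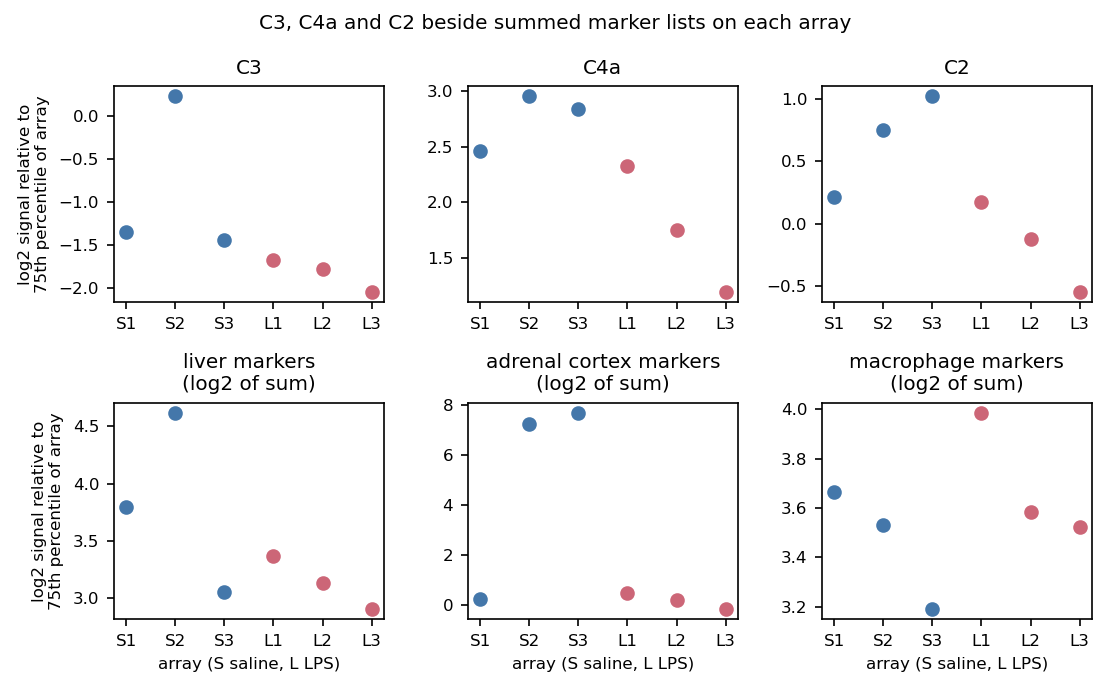
Log2 signals of C3, C4a and C2 (top) and log2 of the summed signals of 3 marker lists (bottom) on saline arrays S1 to S3 (blue) and LPS arrays L1 to L3 (red), all relative to the 75th percentile of the array. C3 and the liver markers had their highest value on S2, and the adrenal cortex markers were high on S2 and S3 only. Macrophage markers were lowest on S3 and highest on L1, the array on which Cx3cr1 of that list was highest.

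Cfb encodes factor B, the protease of the alternative route C3 convertase. Its log2 signals were 1.83, 1.67 and 1.28 on the saline arrays and 1.89, 1.17 and 0.79 on the LPS arrays. LPS replicate 1 was the highest of all arrays and the other LPS arrays were the lowest, and the mean log2 difference was -0.31 (standard error 0.32, 95% interval -1.06 to 0.45, adjusted p = 0.795 by limma). It was 0.30 with the slide row as a block and 0.07 with no normalization between arrays. Without LPS replicate 1 it was -0.61, at an unadjusted p of 0.0496 by limma, without LPS replicate 3 it was -0.06, and without saline replicates 2 and 3 it was -0.54.

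Cd55 encodes decay-accelerating factor, which takes C3 convertases apart on host cells. Its brighter probe gave log2 signals of -0.76, -1.33 and -1.40 on the saline arrays and -0.53, -0.96 and -0.91 on the LPS arrays. Saline replicate 1 was above LPS replicates 2 and 3, so the groups overlapped. On average LPS exceeded saline by a log2 of 0.36 (standard error 0.24, 95% interval -0.22 to 0.93, adjusted p = 0.583 by limma), and it was -0.05 when saline replicates 2 and 3 were left out. Between samples of the same number, which the labels do not pair, LPS was higher in 3 of 3, by 0.23, 0.37 and 0.48. How many of all genes were so was not computed.

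The other Cd55 probe gave -1.95, -3.06 and -2.47 on the saline arrays and -1.30, -2.11 and -1.81 on the LPS arrays. The order of the arrays was similar, with replicate 1 the highest in both groups. Its log2 difference was 0.76 (standard error 0.34, 95% interval -0.06 to 1.57, adjusted p = 0.333 by limma). With the replicate number as a block its unadjusted p went from 0.0650 to 0.00545, and its adjusted p by limma was 0.167. The difference at this probe was 0.21 without saline replicates 2 and 3 and 0.47 without saline replicate 2. It passed both 2-fold and an unadjusted p of 0.05 in limma without saline replicate 1, at 1.03, and with no normalization, at 1.13. With the slide row as a block, which rests on LPS replicate 1, the highest array at this probe, it was 1.20. It was 0.40 with normexp background correction and 0.28 with no background correction, at unadjusted p of 0.167 and 0.194 by limma. The plain t-test gave an unadjusted p of 0.131. Genes most like Cd55, at the brighter probe, were Gstm5, Lgalsl, Sbp, Zg16b and Ift46 (r from 0.993 to 0.998 over 6 arrays).

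Cd59 encodes protectin, which blocks assembly of the membrane attack complex. It had log2 signals of 0.93, 1.52 and 1.37 on the saline arrays and 0.92, 1.10 and 1.13 on the LPS arrays. Saline replicates 2 and 3 were above the rest, and saline replicate 1 lay with the LPS arrays. The log2 difference was -0.22 (standard error 0.21, 95% interval -0.72 to 0.27, adjusted p = 0.752 by limma). It was 0.12 without saline replicates 2 and 3, and 0.15 with no normalization between arrays.

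**Figure D3:**
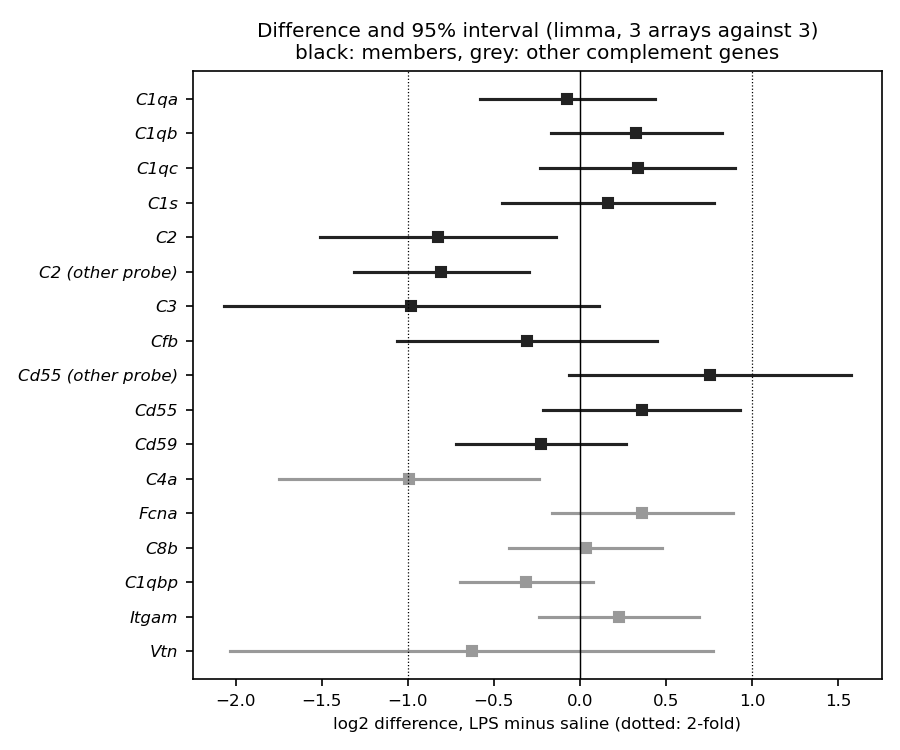
Log2 difference between LPS and saline (squares, horizontal axis) with 95% intervals from limma on 3 arrays against 3, for the 11 probes of the 9 complement genes (black) and 6 other complement genes (grey). Dotted lines mark a 2-fold difference. Only the intervals of both C2 probes and C4a leave out 0.

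C2 and Cfb lie side by side in the major histocompatibility complex of rat chromosome 20, followed by Nelfe, Skic2, Dxo, Stk19, C4a and Cyp21a1. Cyp21a1 encodes steroid 21-hydroxylase, an enzyme of the adrenal cortex, and is one of the adrenal markers above. Its log2 signals were 0.03, 5.96 and 6.67 on the saline arrays and 0.24, -0.59 and -0.95 on the LPS arrays. These neighbours were chosen after their values had been seen.

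C4a, a C4 gene whose near-identical copy C4b had no probe matched here, so that the probe may read both, had log2 signals of 2.46, 2.96 and 2.84 on the saline arrays and 2.33, 1.75 and 1.19 on the LPS arrays. All LPS arrays were below the saline arrays. The log2 difference was -0.99 (standard error 0.32, 95% interval -1.75 to -0.24, unadjusted p = 0.0173, adjusted p = 0.272 by limma). It was -0.70 without saline replicates 2 and 3, and a block for the slide row made it -0.43.

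Between C2 and C4a, Dxo, a decapping enzyme gene, was at 1.83 and 1.67 on saline replicates 2 and 3, at 0.76 on saline replicate 1 and at 0.35 to 0.59 on the LPS arrays. Stk19 was at 1.51 and 1.34, at 0.52, and at 0.16 to 0.54 on the same arrays. Their log2 differences were -0.91 and -0.83, with adjusted p-values of 0.272 and 0.274 by limma. Saline replicates 2 and 3 were the highest arrays for C2, Skic2, Dxo, Stk19, C4a and Cyp21a1, whereas Cfb and Nelfe did not follow this order. The same arrays were also the highest for Cd59, C1qbp and the endothelial marker Kdr, which are not in this run of genes. The share of all genes with these arrays highest was not computed. Skic2 and Nelfe had log2 differences of -0.36 and -0.05. Zbtb12, before C2 in genome order, did not have saline replicates 2 and 3 highest either. Its log2 difference was 0.27, and LPS replicates 1 and 2, at -3.77 and -3.72, were its highest arrays. The part of adrenal transcripts in these levels was not tested.

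**Figure D4:**
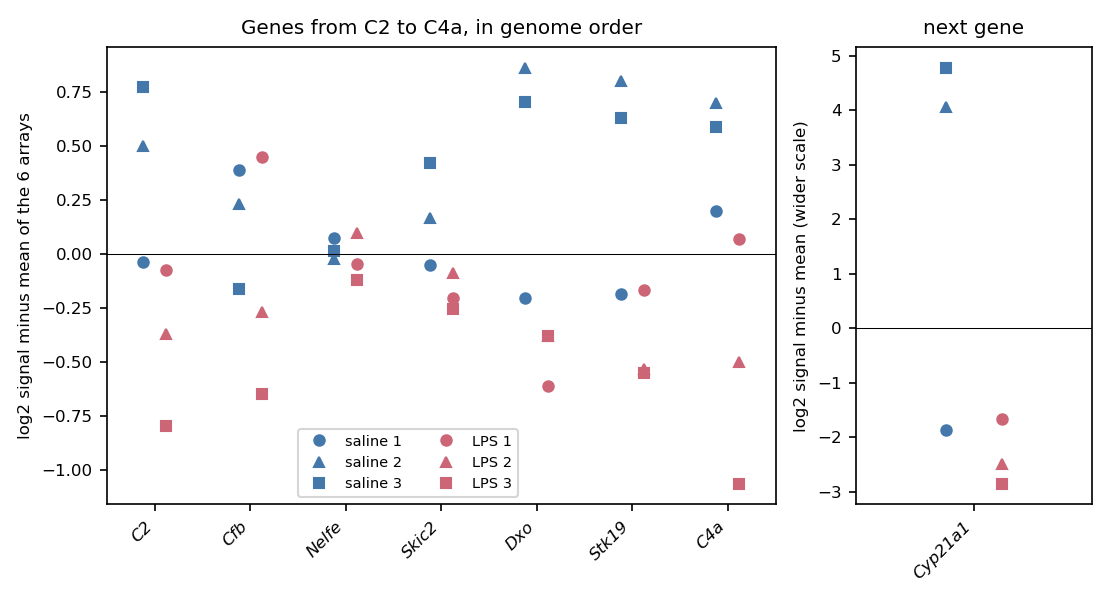
Log2 signal minus the mean of the 6 arrays for the genes from C2 to C4a in genome order (left) and for Cyp21a1, the next gene, on a wider scale (right), with saline arrays in blue and LPS arrays in red and a symbol per replicate. Saline replicates 2 and 3 are the highest arrays for C2, Skic2, Dxo, Stk19, C4a and Cyp21a1.

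Another 43 complement genes were listed as recognition proteins and early proteases, terminal components, receptors and further regulators, and 37 of them had a probe. No gene among the 37 met the 2-fold criterion by limma. At an unadjusted p under 0.05 by limma, 0 were higher and 9 lower, beside 15.9% of all genes for both directions together. The share of all genes for the lower direction alone was not computed. Of these 9 only C4a was well above background on any array. Without overlap 0 were higher and 13 lower, beside 4.67% and 18.2% of all genes. Of those 13, only C4a and C1qbp were well above background on all arrays, a class that held 19 of the 37, with a median log2 difference of 0.03, and in which 5.88% of genes on the whole array were lower without overlap. The median of all 37 was -0.26. In the dim genes, such as the lectins Mbl2 and Colec10 and the terminal components C8a and C9, which were well above background on no array, only the scaled background was measured.

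Few terminal components were detected, and C8b, with a log2 difference of 0.03, was the only 1 of 4 with a probe that exceeded background clearly on every array. The difference of C8b was 0.097 without saline replicates 2 and 3. Among recognition molecules, ficolin A (Fcna) had a log2 difference of 0.36 and its groups overlapped. C1qbp, named for binding the globular heads of C1q and located mainly in mitochondria, was at 4.76, 4.83 and 4.84 on the saline arrays and 4.35, 4.64 and 4.50 on the LPS arrays. The LPS arrays were all lower, with a log2 difference of -0.31 (standard error 0.16, adjusted p = 0.412 by limma), which was 0.06 with no normalization between arrays.

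The receptor gene Itgam, a chain of complement receptor 3, exceeded background clearly on every LPS array and on 1 saline array and had a log2 difference of 0.23. Without saline replicates 2 and 3 that difference was 0.016. Vitronectin, Vtn, which binds terminal complexes and is made largely by the liver, was at -0.82 on saline replicate 2 and between -3.26 and -2.64 elsewhere. Its log2 difference of -0.63 was 0.08 without that array. Adjusted p-values from limma were 0.721 for Itgam, 0.757 for Vtn, 0.521 for Fcna and 0.990 for C8b.

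Macrophages are a source of C1q, and their markers are given beside it. Of 15 macrophage markers 12 had a positive log2 difference, with a median of 0.26, and 6 were higher without overlap, beside 4.67% of all genes. Csf1r, the receptor for colony stimulating factor 1, was at -1.52, -1.68 and -1.51 on the saline arrays and -1.06, -1.08 and -1.02 on the LPS arrays, a log2 difference of 0.52. Mrc1, the mannose receptor gene, was the only marker of the 15 past both 2-fold and an unadjusted p of 0.05 by limma. Its log2 difference was 1.19 (adjusted p = 0.272 by limma), and it was well above background on 2 saline arrays and all LPS arrays. With no background correction 0 probes of the whole array were higher at this criterion, so Mrc1 was not called. Msr1, among the 6 without overlap, was well above background on 0 saline arrays. At that unadjusted p 4 of the 15 were higher. Adgre1, a surface receptor of tissue macrophages, and Trem2 were also higher on all LPS arrays, by 0.81 and 0.44, but Cd68 had a log2 difference of -0.16 and its groups overlapped. No macrophage marker had an adjusted p under 0.05 by limma. The summed signal of the list was 9.13 to 12.7 on the saline arrays and 11.5 to 15.9 on the LPS arrays, ranges that overlapped. Cx3cr1, a gene of the list, weighed on the sums of replicate 1 in both groups. It was at 1.20 on saline replicate 1 and 1.83 on LPS replicate 1, and between -1.13 and -0.61 on the other arrays. The sums were not computed without it. The part of macrophage number in the C1q signals was not tested.

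**Figure D5:**
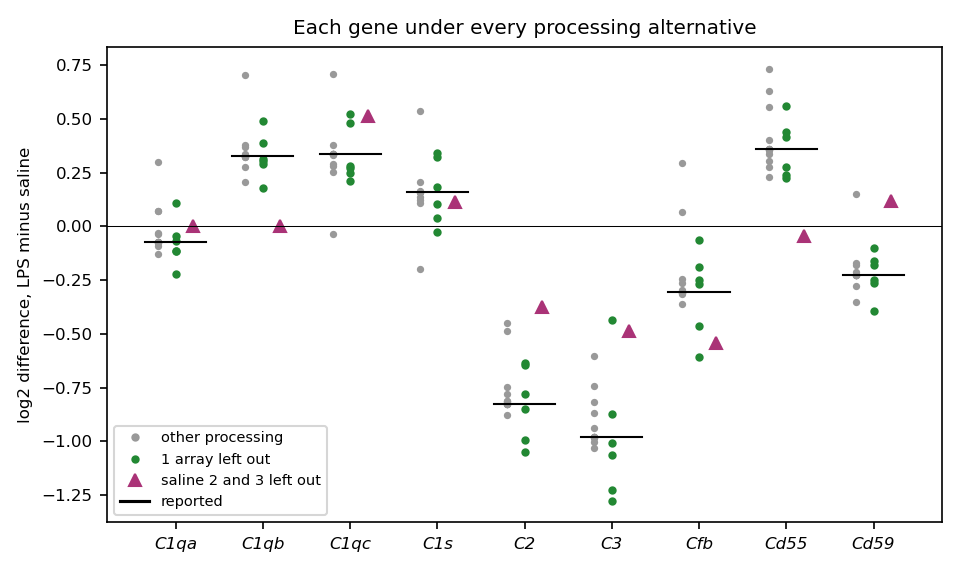
Log2 difference between LPS and saline for each complement gene as reported (black line), with other normalizations, corrections and models (grey), with 1 array left out (green) and without saline replicates 2 and 3 (purple triangle). C2 and C3 were below 0 throughout and C1qb above 0 throughout, while the other 6 genes had values on both sides of 0.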

How the data were processed

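Total RNA from 3 saline and 3 LPS neonatal rat ovary samples was amplified, coupled to Cy3 and hybridised by the authors to Agilent SurePrint G3 rat arrays. The deposited scanner files, made with Feature Extraction 10.5.1.1, hold background-subtracted intensity values per spot, and the deposited series table equalled these intensity values within 0.497%. The submitters' processing notes name lumi with no role, and the study's methods name a 2-fold and p criterion without saying whether p was adjusted, and the array normalization is not given in the sources used here.

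The 58717 non-control spots gave 30367 probes after spots of 1 probe were averaged and flagged spots left out. The gene name column was empty, so genes were named by RefSeq accession, which gave 17990 probes a symbol and left 3416 unmatched. Signals were put on the log2 scale minus the 75th percentile of each array. LPS and saline were compared by linear models with moderated variances (limma 3.58.1, R 4.3.3), with Benjamini-Hochberg adjustment over all probes, and the brightest probe stood for a gene in counts. Single values were also compared by the exact two-sided permutation test, whose smallest p here is 0.1. No p was computed for the list. In simulated data for 30367 probes with 200 changed by a log2 of 2 to 3, the 2-fold and unadjusted p criterion recovered 97.5% of them. The differences of the members were all smaller than those simulated, so this share does not apply to them. The number of arrays limits the precision.

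Named were all members with every probe, in each other complement list the genes past the criterion or else the 2 with the smallest p among those clearly above background throughout a group, and the 5 genes most like C1qa, C1qb, C1qc, C3 and Cd55 over the 6 arrays, of which some are not reported here. The members and lists were chosen with earlier results of these data known. Samples with the same replicate number deviated together from their group means (r of 0.298, 0.215 and 0.254 for replicates 1, 2 and 3 over all probes). The numbers were therefore taken to pair the samples, and a fit with this block was an alternative. The labels state no pairing, and samples with different numbers were not compared in this way. The others were normalization (none, quantile, median, another percentile), background correction, the deposited series table, filters on dim and flagged spots, a plain t-test per probe, limma with trend, the slide row as a block, the mean of a gene's probes, and leaving out arrays.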

Additional observations from a re-analysis of the deposited data

How the results depend on the processing

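None of the 9 complement genes reached an adjusted p under 0.05 by limma or the plain t-test under any of the 21 alternatives, and 0 to 3 of them had an unadjusted p under 0.05. C2 and C3 were lower and C1qb higher in LPS in all of them. With samples paired through a replicate block, the log2 difference of C2 stayed at -0.83 and its unadjusted p was 0.0568, and 628 probes met the 2-fold and unadjusted p criterion, against 513 without the block, and at the other Cd55 probe the unadjusted p went from 0.0650 to 0.00545. No other call changed with the block. Those 513 probes, 186 higher and 327 lower, became 1230 with no normalization (1003 higher, 227 lower), 291 with quantile normalization, 282 with normexp (2 higher, 280 lower), 211 with no background correction (0 higher), 312 with dim probes left out, 148 with a plain t-test, 1555 with the slide row as a block (1489 higher), 1000 without saline replicates 2 and 3, and 250 to 1131 with 1 array left out. At an adjusted p under 0.05, 0 probes were called, against 290 without saline replicate 1 and 5 with the slide row block. The members at the 2-fold criterion numbered 0 to 1 with 1 array left out, namely C2 without saline replicate 1 and C3 without saline replicate 3. The members without overlap numbered 1 with the percentile taken over probes well above background, and 2 to 5 with 1 array left out, the 5 occurring without saline replicate 1 or LPS replicate 1. Groups separate more readily with fewer arrays, and the share of all genes was not computed for these settings. Probes at an unadjusted p under 0.05 by limma numbered 7196 without saline replicate 1 and 6878 without LPS replicate 1, against 5018 with all arrays.

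Signs turned as follows, with no cause tested. With no normalization the log2 differences were 0.30 for C1qa, 0.068 for Cfb, 0.15 for Cd59 and 0.063 for C1qbp. With normexp they were 0.071 for C1qa, -0.15 for C8b and -0.15 for Itgam, and with no background correction 0.0695, -0.13 and -0.12. C8b was at -0.0246 with quantile and -0.02 with median scaling. With the slide row as a block they were -0.0362 for C1qc, -0.20 for C1s and 0.30 for Cfb. Without saline replicates 2 and 3 they were 0.0035 for C1qa, -0.0459 for Cd55, 0.12 for Cd59 and 0.14 for Vtn. With 1 array left out the ranges were -0.22 to 0.11 for C1qa, -0.0242 to 0.34 for C1s, -0.0762 to 0.17 for C8b and -1.01 to 0.0763 for Vtn, and for the members that kept their sign -1.05 to -0.63 for C2, -1.28 to -0.44 for C3, 0.18 to 0.49 for C1qb, 0.21 to 0.52 for C1qc, -0.61 to -0.06 for Cfb, 0.22 to 0.56 for Cd55 and -0.40 to -0.10 for Cd59. With 3 arrays a group, a difference smaller than the intervals given was not detectable.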
